A study of Mus musculus with 4 samples.

Results

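Fhit, Wwox, Macrod2, Immp2l, Lrp1b, Dlg2, Csmd1, Ctnna3 and Magi2 are 9 very long mouse genes of the kind found at chromosomal fragile sites. Their copy number was read from array comparative genomic hybridisation of liver tumour DNA. Members were found by name: every non-control probe whose gene name in the array files equals 1 of these symbols, with upper and lower case treated alike. That gave 1349 of 161460 autosomal probes and 9 of 17963 autosomal gene names.

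The tumours, numbered 239, 240, 244 and 252, came from 4 separate mice of genotype FAH-/-, Trp53-/-. FAH (fumarylacetoacetate hydrolase) carries out the final step of tyrosine breakdown. The animals lacked it, and they also lacked the tumour suppressor p53. Their water held NTBC, which blocks an earlier step of tyrosine breakdown and so protects the liver. The labels state 7.5 mg/L as the usual level and a regimen cut to 2.5% of it lasting 6 months. DNA of each tumour carried Cy5 and was set against a Cy3-labelled pool of normal liver DNA from 3 FAH+/+, Trp53+/+ littermates. The labels do not state which water the littermates drank. Tumours and pool are all labelled male. The share of tumour cells in each sample and their ploidy are not given, so a level cannot be turned into copies per cell.

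Fragile sites are chromosome regions that break or gap when DNA replication is slowed. Many lie inside genes so long that replication origins are sparse and transcription runs through much of the cell cycle. In human tumours, deletions inside genes such as FHIT, WWOX, MACROD2 and LRP1B are common, usually as gaps within the gene that leave the rest of the chromosome in place. The question asked of each gene was therefore whether a loss or a break lay inside it, beyond any gain or loss of its whole chromosome.

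Each value is the log2 of tumour over pool, set so that the median autosomal probe of each array is 0. If all cells were diploid, losing 1 of 2 copies throughout the sample would read -1, and gaining 1 would read 0.58. The SD of the noise between neighbouring probes ran from 0.31 to 0.39 over the 4 arrays, while spots well above background in both colours made up 98.7% to 98.9%. On the X chromosome tumour 252 had a median of 0.73, against -0.30 to -0.09 in the other 3 tumours. On the Y chromosome it had -2.43, against -1.20 to -0.14. Values of tumour 252 thus went against its male label, so results are also given without it where that changes them. The pool counts as 1 control sample. Every array carried the same dyes the same way round and lay on 1 slide in 1 scan. Precision is limited by having 4 arrays, and p-values rest on spread among these 4 tumours only. Limma pulls the spread of each gene toward the spread common to all genes tested. A p-value therefore does not follow from the SD over 4 tumours printed beside it. A difference present in all 4 tumours cannot be told apart from a property of the pool or of the dyes. Nor can it be told apart from an inherited difference between the tumour mice and the littermates. Tumours and pool differed in genotype on every array, and no normal DNA of the tumour mice was measured.

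The probes of each gene formed 1 unbroken run along its chromosome. Between first and last probe the genes spanned 900.2 kb (Wwox) to 2046.8 kb (Lrp1b), with 90 to 203 probes each at a median spacing of 8.93 to 10.2 kb. Positions are those of the mm9 build named in the files, and exons and introns are not told apart here. The largest stretch without a probe was at most 32.1 kb in 8 of the genes. Immp2l was the exception, with 381.2 kb between neighbouring probes at chr12:42293693-42674823, where a loss would not be seen.

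Averaged over their whole length, the genes lay near their chromosomes. Of the 36 levels (9 genes in 4 tumours), 8 lay 0.2 or more from 0, and 0 lay that far from the mean of the gene's own chromosome. Smaller differences were mostly downward: 29 of the 36 levels lay below the chromosome mean, and 5 of the 9 genes (Fhit, Macrod2, Immp2l, Lrp1b and Dlg2) lay below it in all 4 tumours. Dlg2 was the farthest below in every tumour, by -0.09, -0.15, -0.16 and -0.16 in tumours 239, 240, 244 and 252. The share of other genes below their chromosome mean, or 0.2 or more from it, was not computed. Against 0, the 61 genes with at least 90 probes, these 9 included, had median levels of -0.05, -0.04, -0.02 and -0.06 in these tumours. Over all genes tested the medians were 0.02, 0.01, 0.02 and 0.03. Against 0, long genes as a set thus lay slightly low, which does not tell how they lay against their own chromosomes. The 8 levels 0.2 or more from 0 were Immp2l in all 4 tumours, on chromosome 12, and Wwox, Csmd1, Dlg2 and Ctnna3 in tumour 244 alone. Whole-chromosome means in tumour 244 were 0.33 on chromosome 8, -0.23 on chromosome 7 and -0.25 on chromosome 10.

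Among the enzymes, Fhit, a hydrolase of dinucleoside polyphosphates at chr14:10384642-11985470, had levels of -0.09, -0.09, -0.02 and -0.09 in tumours 239, 240, 244 and 252. Wwox, an oxidoreductase with WW domains at chr8:116971226-117871402, had -0.13, 0.07, 0.40 and -0.06. Macrod2, which removes ADP-ribose from proteins and lies at chr2:140224267-142212190, had -0.03, -0.02, -0.01 and -0.10. Fhit and Macrod2 sat close to 0 in every tumour, while Wwox was high in tumour 244 only, on a chromosome that was high along its length.

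Immp2l, a subunit of the inner mitochondrial membrane peptidase at chr12:41754734-43049365, had levels of -0.45, -0.33, -0.51 and -0.36 in tumours 239, 240, 244 and 252. It was the lowest of the 9 genes in every tumour and averaged -0.41 ± 0.08 (SD over 4 tumours), a call that passed (limma adjusted p = 0.000278). Chromosome 12 as a whole averaged -0.40, -0.21, -0.39 and -0.24.

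Among the membrane and scaffold genes, Lrp1b, an endocytic receptor of the LDL receptor family at chr2:40459693-42506541, had -0.03, 0.01, 0.04 and -0.06 in tumours 239, 240, 244 and 252. Dlg2, a synaptic scaffold protein gene at chr7:98245648-99594310, had -0.11, -0.15, -0.39 and -0.17. The Dlg2 levels lay below 0 in 4 of 4 tumours and averaged -0.21 ± 0.13 (SD over 4 tumours; adjusted p = 0.0198 by limma). Without tumour 240 that call was lost, at a mean of -0.22 (limma adjusted p = 0.0639). It was also lost with medians over probes, at -0.13 (limma adjusted p = 0.137).

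Csmd1, a membrane protein with CUB and sushi domains at chr8:15906970-17531172, had levels of 0.04, -0.05, 0.31 and -0.03. Ctnna3, an alpha-catenin of cell junctions at chr10:62902046-64466050, had -0.03, -0.02, -0.27 and -0.03. Magi2, a scaffold of cell contacts at chr5:18739787-20194942, had 0.00, -0.04, 0.09 and 0.01. Csmd1 and Ctnna3 stood out in tumour 244 alone, in the direction of chromosomes 8 and 10 there.

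Tested against 0 with limma over 8391 genes of at least 3 probes (Benjamini-Hochberg adjusted p under 0.05), 0 of the 9 genes were higher and 2, Immp2l and Dlg2, were lower. Over all genes tested, 19.4% were higher and 15.2% were lower by the same rule. The median of the members' mean levels was -0.04, against 0.02 over all genes tested. Among the 51 non-member genes with at least 90 probes the median was -0.05, with 1 higher and 7 lower, so the members lay like other long genes.

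**Figure D1:**
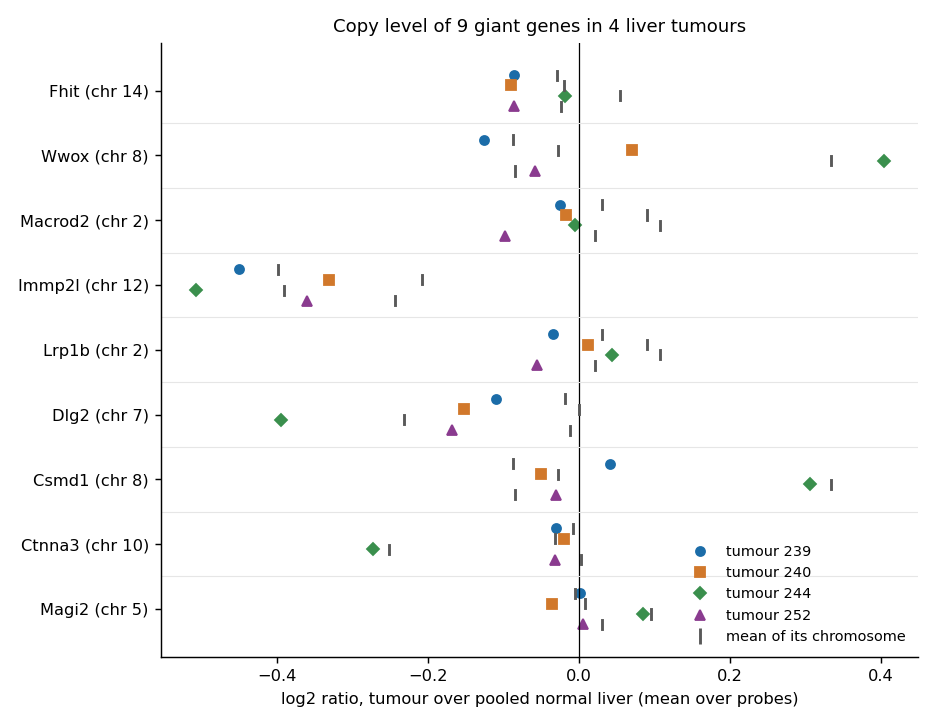
Log2 ratio of tumour over pool (horizontal axis) for each gene (rows), 1 point per tumour, with a grey tick at the mean of the gene's chromosome in that tumour. Immp2l lies between -0.51 and -0.33 in all 4 tumours beside low ticks, and Wwox and Csmd1 are high in tumour 244 alone, at 0.40 and 0.31, beside high ticks.

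Each gene was then set against its own surroundings, by taking from its mean the average of the means of its left and right 1 Mb flanks. These differences were small: all 36 lay between -0.11 and 0.08, and 0 of 36 reached 0.2 in size. Averaged over tumours, the 51 non-member genes with at least 90 probes lay between -0.09 and 0.16, also short of 0.2. Over all 5165 genes tested, such means ran from -3.44 to 0.64. The 0 of 36 thus does not set the members apart from other long genes. Dlg2 lay below its flanks in 4 of 4 tumours, by -0.06, -0.10, -0.10 and -0.11 in tumours 239, 240, 244 and 252, averaging -0.09 ± 0.02 (SD over 4 tumours; adjusted p = 0.00827 by limma). Fhit did as well, at -0.07, -0.06, -0.09 and -0.06, averaging -0.07 ± 0.01 (SD over 4 tumours; adjusted p = 0.0248 by limma). Both are means over all probes of a gene, whereas the -1 of a single-copy loss in all cells holds for probes inside the lost stretch. A loss of part of a gene would move its mean by less, so these means do not decide whether one was present.

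Over 5165 genes with at least 5 probes, limma called 0 of the 9 genes higher and 2 lower than their flanks, against 30.9% higher and 23.9% lower among all genes tested. Both calls were lost when medians over probes replaced means, at -0.07 for Dlg2 (limma adjusted p = 0.114) and -0.04 for Fhit (limma adjusted p = 0.338). With flanks of 500 kb the Dlg2 difference turned to 0.03 (limma adjusted p = 0.365), Fhit had -0.04 (limma adjusted p = 0.224), and Immp2l was called higher at 0.14 (limma adjusted p = 0.000757). With flanks of 2 Mb Dlg2 had -0.04 (limma adjusted p = 0.172), but 3 other members were called lower. These were Fhit at -0.10, Lrp1b at -0.08 and Csmd1 at -0.06, with limma adjusted p of 0.00347, 0.0144 and 0.0356. Which genes were called thus changed with the width of the flanks. The Fhit call was also lost without tumour 240, without 244 or without 252, with limma adjusted p of 0.0618, 0.122 and 0.0745. Of 1027 probes in the flanks, 3 lay 1 or more from their surroundings in 1 tumour alone, each of them lower. That is 3 of 4108 values over all tumours. Among autosomal values, 0.0506% lay at -1 or lower in this way and 0.0196% at 1 or higher. A count of 3 cannot show an excess over these shares. The left flank of Fhit held 1 of the 3, at -2.62 in tumour 240, at chr14:10052740-10052799, which is 331.8 kb outside the gene. The left flank of Dlg2 held 1 at 0.11 in tumour 239, against 0.99 to 1.52 in the other 3 tumours. The left flank of Wwox held 1 at -0.23 in tumour 240, against 0.51 to 1.12.

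Wwox, Immp2l and Ctnna3 lay above their flanks in 4 of 4 tumours without passing the test, at means of 0.02 ± 0.01, 0.03 ± 0.02 and 0.04 ± 0.02 (SD over 4 tumours). Their limma adjusted p-values were 0.582, 0.217 and 0.2002. Macrod2 averaged -0.04 ± 0.04, with tumour 239 above its flanks and the other 3 below. Lrp1b had 0.08 in tumour 239 and -0.05 to 0.00 in the other 3. Csmd1 and Magi2 had means of 0.00 and 0.01. Against the flanks, the members' median was 0.00, beside 0.01 over all genes tested.

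**Figure D2:**
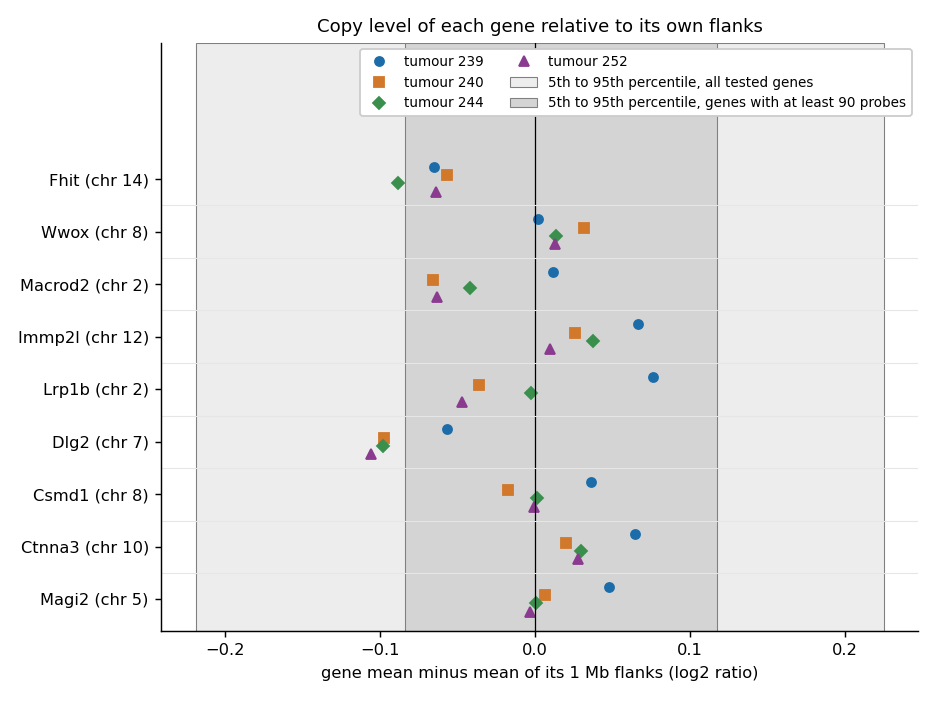
Gene mean minus the mean of its 1 Mb flanks (horizontal axis, log2 ratio) for each gene (rows), 1 point per tumour. The light and dark bands span the 5th to the 95th percentile, averaged over tumours, of all 5165 tested genes and of 60 with at least 90 probes, these 9 included. Every point lies between -0.11 and 0.08.

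The 2 flanks of a gene did not always lie level. Beside Csmd1 the right flank was lower than the left by -0.24, -0.22, -0.21 and -0.26 in tumours 239, 240, 244 and 252. Beside Immp2l the right flank was lower by -0.20, -0.14, -0.16 and -0.19. These offsets were shared by all 4 tumours, and were as large as or larger than any difference between a gene and its flanks.

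Segmentation splits each chromosome where the level steps from one run of probes to another. It placed 23, 21, 28 and 32 breaks in tumours 239, 240, 244 and 252, which is 104 in all or 0.0161% of neighbouring probe pairs. Inside the 9 genes it placed 0 breaks in 1340 pairs of probes per tumour, and it placed 0 within 200 kb of a gene's first or last probe. Each gene lay whole within 1 segment in every tumour. The nearest break to any of them was 3.00 Mb from Dlg2 in tumour 252, inside a chromosome 7 segment of 772 probes at -0.16. Next came Csmd1 in tumour 252, at 7.80 Mb from a break. Segments of under 5 probes were not allowed, so a shorter loss could not appear here. Longer ones may also have been missed, since the number of breaks found depended on the setting. With segments of at least 10 probes there were 71, 47, 46 and 54 breaks in tumours 239, 240, 244 and 252. With normexp background correction there were 53, 42, 27 and 50. Neither setting placed a break inside the 9 genes.

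Shorter stretches were read in overlapping windows of 10 consecutive probes of the same gene, each minus the median of the 50 probes before and the 50 after it. In 5072 windows over the 4 tumours 57 lay at -0.4 or lower, 1.12%, against 0.671% of all autosomal windows. At 0.4 or higher lay 2, 0.0394%, against 0.0968%. These low windows were in 4 genes, and overlapping windows repeat the same probes, so the counts are not counts of separate losses.

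Dlg2 held 36 of the 57 low windows, 9 in each tumour and the same 9 in all 4, within chr7:98319684-98462231. Its lowest window, chr7:98319684-98398891, had -0.66, -0.70, -0.69 and -0.69 in tumours 239, 240, 244 and 252. Immp2l held 12, within chr12:41940436-42078058, with 2 windows low in all 4 tumours and a lowest value of -0.46. Fhit held 4, within chr14:11379726-11506674, with a lowest value of -0.43 in tumour 252, -0.41 in 244, -0.41 in 240 and -0.28 in 239. In Dlg2, Immp2l and Fhit the dip therefore lay at the same place in each tumour.

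Lrp1b held the other 5, all in tumour 244, within chr2:42291068-42423396. Its lowest window there had -0.50 in tumour 244, where the lowest windows anywhere in the gene were -0.28 to -0.32 in the other 3 tumours. All 5 windows hold the same lone probe, at chr2:42333790-42333849, at which the pool signal was high on that array. With probes at -1 or lower in 1 tumour alone left out (chosen after the data were seen), Lrp1b held 0 low windows and its lowest in tumour 244 was -0.26. Leaving out a low probe raises its windows by itself, so this shows only what the 5 windows rested on. The 2 high windows were in Csmd1, at 0.42 in tumour 252 and 0.40 in tumour 244. Wwox, Macrod2, Ctnna3 and Magi2 held no window past either limit, with values between -0.37 and 0.31.

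**Figure D3:**
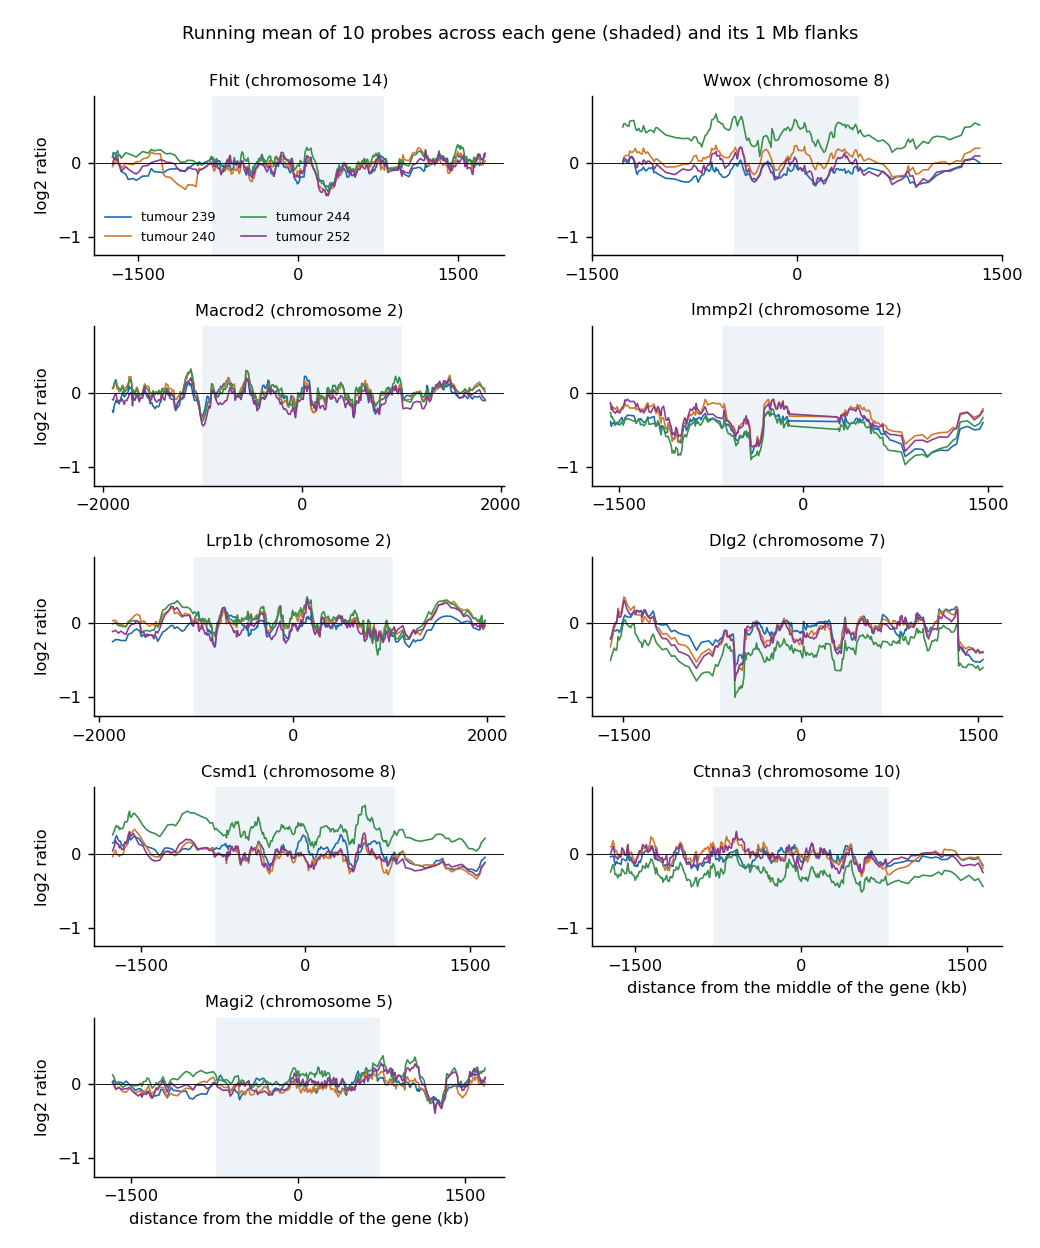
Running mean of 10 probes (vertical axis, log2 ratio) against distance from the middle of each gene in kb (horizontal axis), 1 line per tumour, with the gene shaded and 1 Mb of flank on each side. The 4 lines rise and dip together inside the genes, and differ mainly by a constant offset, as for tumour 244 in Wwox, Csmd1, Ctnna3 and Dlg2. The straight stretch in Immp2l is the 381.2 kb without probes.

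To see what belonged to 1 tumour alone, the median of the other 3 tumours was taken from each probe before the windows were read. This also removes any loss shared by most of the tumours. In these 5072 windows 0 lay at -0.4 or lower and 0 at 0.4 or higher, against 0.00424% and 0.00392% of all autosomal windows. The lowest values were -0.31 for Ctnna3 in tumour 239, at chr10:63101903-63211981, and -0.30 for Lrp1b in tumour 244, at chr2:42333790-42423396. Next were -0.29 for Wwox in tumour 244 and -0.27 for Csmd1 in tumour 239. The highest was 0.26, for Lrp1b in tumour 239. With windows of 5 probes 3 lay at -0.4 or lower, 2 in Lrp1b and 1 in Wwox, all in tumour 244. Each of the 3 holds the lone low probe of its gene in that tumour, and without such probes 0 remained. That removal raises these windows by itself, so the 0 shows only what the 3 windows rested on.

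**Figure D4:**
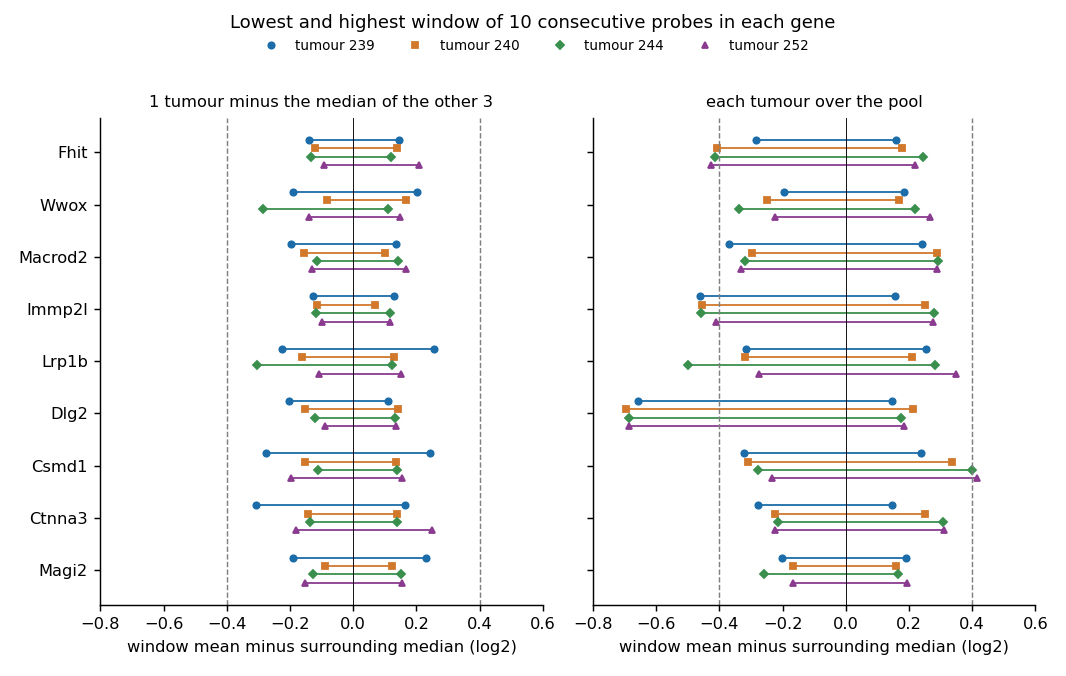
Lowest and highest window of 10 probes in each gene (rows) for each tumour, as window mean minus the surrounding median (log2), after taking off the other 3 tumours (left) and against the pool (right). Dashed lines mark -0.4 and 0.4. The Dlg2 dip of -0.66 to -0.70 in all 4 tumours (right) is absent on the left, where every value lies between -0.31 and 0.26.

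At single probes, 12 of the 1349 lay at -1 or lower in all 4 tumours, 0.890%, against 0.635% of autosomal probes. Dlg2 held 6 of its 145, Lrp1b 2 of 203, Macrod2 2 of 202, Immp2l 1 of 94 and Fhit 1 of 165, while Wwox, Csmd1, Ctnna3 and Magi2 held 0. These probes lay apart from each other, save for 1 pair of neighbours in Dlg2. The sequences of that pair and of the lone deep Immp2l probe are shown because the low windows of these genes rest on them, 5′ to 3′ as the files give them, in lower case throughout, with the strand not stated.

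Dlg2 probe at chr7:98392370-98392429: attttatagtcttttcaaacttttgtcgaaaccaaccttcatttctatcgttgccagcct
Dlg2 probe at chr7:98398832-98398891: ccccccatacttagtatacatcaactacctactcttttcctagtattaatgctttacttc
Immp2l probe at chr12:42030776-42030835: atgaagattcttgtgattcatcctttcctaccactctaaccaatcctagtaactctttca

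The deeper of the Dlg2 pair had -3.06, -3.36, -3.99 and -3.64 in tumours 239, 240, 244 and 252. Its processed signal was 140.4, 146.2, 94.3 and 115.8 for the tumours, against 1153.0, 1472.6, 1457.4 and 1456.8 for the pool on the same arrays. The spot was well above background in both colours on 3 arrays, tumour 244 being the exception. Its neighbour 6.46 kb to the left had -1.43, -1.46, -1.84 and -1.46, and the other 15 probes around them lay between -0.79 and 0.41.

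The Immp2l probe had -3.26, -3.25, -3.32 and -3.08 in tumours 239, 240, 244 and 252, and was well above background on all 4 arrays. Its signal was 157.7 to 222.4 for the tumours, against 1490.0 to 1895.0 for the pool. The probes on either side averaged -0.51 and -0.56, near the level of the gene. Both genes thus had a tumour signal that was low in 4 of 4 tumours over 1 or 2 probes, with ordinary values 10 kb away. Farther out, Immp2l held other low probes, and the 16 probes around the deep one lay between -1.23 and 0.60. The probe at chr12:42007079-42007138 had -0.86, -0.99, -1.11 and -1.08 in tumours 239, 240, 244 and 252. The probe at chr12:42077999-42078058 had -0.68, -0.91, -1.01 and -1.23. The deep Immp2l probe was therefore not the only low one in its stretch.

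Taking out every probe at -1 or lower in all 4 tumours, a step chosen after the data were seen, removed the low windows of Dlg2 and Immp2l altogether. Leaving out the lowest values raises the windows that held them, so the step shows only which probes those windows rested on. Dlg2 then had 0 low windows, at -0.26 or above, and Immp2l had 0, at -0.30 or above. Fhit had 6 and Lrp1b still had 5. The Dlg2 level moved to -0.14, against -0.21 with all probes (limma adjusted p = 0.0948).

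**Figure D5:**
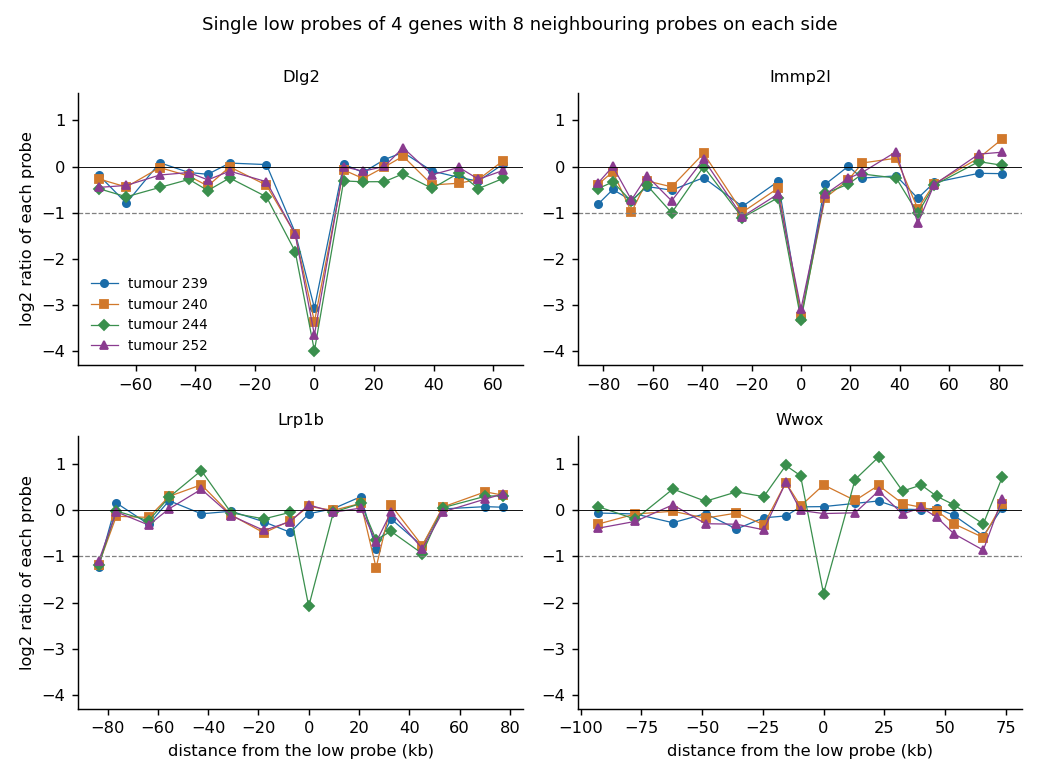
Log2 ratio of each probe (vertical axis) against distance in kb from a low probe (horizontal axis), with 8 neighbours on each side and 1 line per tumour, the dashed line marking -1. In Dlg2 and Immp2l all 4 tumours drop together, to -3.06 or lower. In Lrp1b and Wwox only tumour 244 drops, to -2.08 and -1.81.

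Single probes that left their surroundings in 1 tumour only were also counted, again after taking off the other 3 tumours. Of 5396 values, 4 lay at -1 or lower, 0.0741%, against 0.0506% of autosomal values, and 0 lay at 1 or higher, against 0.0196%. They were 1 probe each in Lrp1b and Wwox in tumour 244, and 2 probes in Ctnna3, in tumours 239 and 252. The first 2 are shown because they were the only probes of these genes at which tumour 244 fell far below the other tumours, and were chosen after their values were seen.

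Lrp1b probe at chr2:42333790-42333849: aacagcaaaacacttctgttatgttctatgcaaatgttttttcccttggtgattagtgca
Wwox probe at chr8:117185897-117185956: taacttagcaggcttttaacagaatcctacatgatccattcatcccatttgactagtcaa

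The Lrp1b probe had -2.08 in tumour 244, against -0.08, 0.08 and 0.12 in tumours 239, 240 and 252. The tumour signal on the array of tumour 244 was 430.3, against 421.8 to 520.6 on the other 3 arrays, whereas the pool signal there was 1779.9, against 391.7 to 542.0. The low ratio thus went with a high signal of the pool, which is the same DNA on every array, and not with a low signal of the tumour.

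The Wwox probe had -1.81 in tumour 244, against 0.08, 0.55 and -0.07 in tumours 239, 240 and 252. Its tumour signal was 844.3 in tumour 244, against 520.1 to 608.6 on the other arrays, and its pool signal 2879.6, against 409.9 to 551.4. The 10 nearest probes averaged 0.57 in tumour 244. The lone low probe in the left flank of Fhit in tumour 240 showed the same: its tumour signal was 754.3, against 601.2 to 734.0 on the other arrays, and its pool signal 4549.0, against 666.1 to 752.7. The lone probe in the left flank of Dlg2 did not: its tumour signal was 601.1 in tumour 239, against 1053.9 to 1159.6 on the other arrays, and its pool signal 547.4, against 398.0 to 533.0.

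In Ctnna3 the pattern differed. The probe at chr10:63040182-63040241 had 0.04 in tumour 239, against 1.10, 1.04 and 0.74 in tumours 240, 244 and 252, with tumour signals of 1519.4, against 2799.6, 2729.6 and 2247.7, and pool signals of 1287.6 to 1453.1 on all 4 arrays. There tumour 239 was the only one near 0 and the other 3 stood above their neighbours. The probe at chr10:63643500-63643559 had -0.87 in tumour 252, against 0.31, 0.51 and -0.09 in tumours 239, 240 and 244, but was well above background in both colours on 1 array only.

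Within each gene, the ups and downs of single probes repeated from array to array. Correlations between 2 tumours over the probes of a gene, after taking off the gene mean, ran from 0.50 to 0.95, the lowest in Wwox and the highest in Dlg2, over 90 and 145 probes. All arrays share the probes and the pool, so these are descriptions. Probe GC content averaged 36.2% to 37.0% in the 9 genes, against a median of 36.7% over autosomal probes.

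Other long genes, many of them at or near fragile sites in human or mouse, formed a list of 25, of which 24 could be tested. Against their flanks 5 were higher and 3 lower by limma, and the list's median was 0.01. The largest were Dpyd, a pyrimidine breakdown enzyme, at -0.12 ± 0.04, Esrrg, a nuclear receptor, at 0.11 ± 0.05, and Cdh13, a cadherin, at 0.10 ± 0.03 (SD over 4 tumours; limma adjusted p of 0.00249, 0.00587 and 0.00435). Erbb4, a receptor kinase, had -0.09 ± 0.04, Dab1, a reelin adaptor, 0.09 ± 0.02 and Ctnna2, another alpha-catenin, 0.08 ± 0.04. Of the 51 non-member genes with at least 90 probes, 7 were higher and 4 lower. Their median was 0.01 as well.

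By Euclidean distance over the 4 tumours, the genes close to the members' median levels of -0.03, -0.04, -0.01 and -0.06 included Pitpnc1 and Slc8a1, at distances of 0.015 and 0.041 among 912 candidates with at least 20 probes. Pitpnc1 had -0.04, -0.05, -0.01 and -0.07 in tumours 239, 240, 244 and 252.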

How the data were processed

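Scanner files of 4 two-colour Agilent mouse CGH arrays, designed on mm9, were used. Agilent Feature Extraction 12.0.0 turned scans into spot values, per the submitters' processing notes. Per the file headers, the processed intensity had its background subtracted, was detrended, and was then scaled between dyes by a linear method. The log10 ratio deposited is tumour (Cy5) over pool (Cy3), and the authors' value table holds it per spot. Spot flags are those deposited by the authors.

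Of 180880 spots per array, 6575 controls and 95 to 120 outlier spots were dropped. Values were averaged over the spots of a probe, and log2 ratios were centred on the autosomal median. Gene levels and differences from 1 Mb flanks (at least 3 probes on each side) were tested against 0 by an intercept-only model in limma 3.58.1 (R 4.3.3), with Benjamini-Hochberg adjusted p under 0.05 as the call. Breaks came from an own circular binary segmentation (at least 5 probes, neighbours closer than 0.1 merged, 99th percentile of 200 shuffles, fewer for the longest runs of probes). The limma fits, the windows of 1 tumour against the other 3 and the segmentation were tested on simulated data. Other steps were not. Software was Python 3.11.15 with matplotlib 3.10.9, scipy 1.17.1, numpy 2.4.6, numba 0.67.0, pandas 2.3.3 and statsmodels 0.14.6.

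The members and lists were chosen with earlier results of these data known. A gene of the list of members and 1 of the genes nearest their median were fitted with all genes but are not reported here. The rule named the members, up to 6 listed long genes past the flank test by size, the 3 genes nearest the members' median, and for each member its most deviant probe and any at -1 or lower in all 4 tumours. Other single probes were picked once their values had been seen. The alternatives were mode centring, normexp (offset 50), the authors' table, lowess on signal, GC, probes well above background, medians over probes, no probe minimum, robust limma, flanks of 500 kb and 2 Mb, windows of 5 and 20 probes, thresholds of 0.3 and 0.5, segments of at least 10 probes, merging at 0.2 and leaving out each tumour.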

Additional observations from a re-analysis of the deposited data

Results flagged for a closer look

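Among the 38 sets of 4 values checked, 5 held 1 tumour whose gap to its nearest neighbour passed Dixon's 95% limit as a share of the whole range, and chance alone picks out about 1 set in 20. The Fhit level was -0.018 in tumour 244, against -0.09 in each of the other 3. The Ctnna3 level was -0.273 in tumour 244, against -0.03 to -0.02. The difference of Dlg2 from its flanks was -0.057 in tumour 239, against -0.11 to -0.10. The Dlg2 probe at chr7:98392370-98392429 had -1.84 in tumour 244, against -1.46 to -1.43. The Lrp1b probe at chr2:42333790-42333849 had -2.08 in tumour 244, against -0.08 to 0.12. That probe had been picked because 1 tumour stood apart from the others, so the rate of 1 set in 20 does not apply to it.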

How the results depend on the processing

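No paired analysis was possible because there is 1 group of 4 tumours set against a common pool. Breaks inside the genes stayed at 0 under all 12 alternatives run. Some of these could not have changed it. Each array was segmented on its own, so leaving out a tumour adds no break, and mode centring moves a whole array by a constant. The authors' table holds the same ratio and gave the same 23, 21, 28 and 32 breaks in tumours 239, 240, 244 and 252. Of the members' single levels and flank differences under alternatives, 214 kept their direction and side of the threshold, 10 lost the threshold, 2 gained it and 26 changed sign. Each that changed sign was within 0.063 of 0, and 1, Csmd1 with flanks of 2 Mb, passed the threshold. The causes were not tested. Losses shorter than a few probes, or in few of the cells, were not detectable, and signal over background limits the deepest probes.

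The count of members lower than 0 was 1 (Dlg2 not called) with medians over probes and without probes at -1 or lower in all 4 tumours (chosen after the data were seen), and 1 to 2 when 1 tumour was left out. Against the flanks, with 500 kb 1 was higher and 0 were lower, with 2 Mb 3 were lower (Fhit, Lrp1b and Csmd1), with medians over probes 0 were lower, and leaving out 1 tumour gave 1 to 2 lower. Over all genes, 1629 were above 0, against 1045 with mode centring, which moved tumour 244 by -0.105 and the others by 0.015 or less in size, 3803 with no probe minimum and 884 to 1955 without 1 tumour. Below 0 were 1279, against 3177 with no probe minimum, 2110 with normexp and 780 to 1536 without 1 tumour.

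The 57 low windows became 88 with normexp, 19 with probes well above background, 11 without probes at -1 or lower in all 4 tumours, 52 without those at -1 or lower in 1 tumour alone, 129 with 5 probes, 5 with 20, 136 at a threshold of 0.3 and 27 at 0.5. The 2 high windows became 1 with normexp and with the authors' table, 0 with lowess, 9 with 5 probes, 0 with 20, 14 at 0.3, 0 at 0.5 and 1 to 2 without 1 tumour. Low windows of 1 tumour against the other 3, 0 in the report, became 3 with 5 probes and 2 at 0.3.

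Levels that changed sign were Wwox at -0.038, Csmd1 at -0.013 and Magi2 at -0.0097 without tumour 244 (highest 0.139, 0.106 and 0.031 with another tumour left out), and Macrod2 at 0.0090, Lrp1b at 0.035 and Magi2 at -0.0051 with medians. Lrp1b had 0.032 with the GC correction, 0.0029 without probes at -1 or lower in all 4 tumours and 0.0067 without tumour 252 (lowest -0.026, without 244). Magi2 had -0.016 with mode centring and -0.022 with normexp.

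Flank differences that changed sign were, with 500 kb, Lrp1b at 0.027, Dlg2 at 0.027, Csmd1 at -0.029 and Magi2 at -0.018. With medians they were Lrp1b at 0.019, Csmd1 at -0.015 and Magi2 at -0.044, and with normexp Lrp1b at 0.0018 and Magi2 at -0.0075. Lrp1b had 0.0042 with lowess, 0.0011 with probes well above background, 0.0088 without tumour 240 and 0.013 without 252 (lowest -0.028, without 239). Csmd1 had -0.063 with 2 Mb and -0.0056 without tumour 239 (highest 0.012, without 240).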
